A study of Arabidopsis thaliana with 6 samples.

Results

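The genes described here are Arabidopsis thaliana genes with a predicted miRNA site whose description in the authors' target sheet holds the word auxin. The known targets of miR160 (ARF10, ARF16 and ARF17) and of miR393 (TIR1, AFB1, AFB2 and AFB3) were left out. This gave 38 genes of the 7800 with a predicted site. The sites belong to 44 distinct small RNA sequences of the 142 in the count table, carried by 56 of its 178 precursor entries. Entries with the same mature sequence held identical counts and were taken once wherever sequences are counted below. A sequence and a gene with a site for it form a pair, and there were 52 such pairs among 10000 in the whole sheet.

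Small RNAs were sequenced from the upper part of leaf explants in 6 libraries, 3 of ein2-1 and 3 of Col-0. The ein2-1 plants are mutant in EIN2, which relays the ethylene signal from the membrane, and Col-0 is the wild type and the control. In both genotypes, seedlings 14 days old were put under water for 1 hour, and explants of their leaves then spent 7 days on callus-inducing medium (CIM), which makes cut tissue form dividing callus. All 6 libraries had this treatment, so the comparison is of genotypes only, and an effect of submergence or of CIM cannot be read from it.

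Auxin moves between cells through carriers such as the PIN proteins. It is sensed by TIR1 and AFB receptors, which mark Aux/IAA repressors for breakdown and so free the auxin response factors (ARF) to act on genes such as GH3 and SAUR. A plant miRNA pairs with a transcript over nearly its whole length, and the transcript is then cut or its translation reduced. Small RNAs of 24 bases are mostly known for guiding DNA methylation, not for cutting transcripts. Auxin is one of the hormones in CIM and drives callus formation.

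The sites are sequence-based predictions from psRNATarget, which scores each site by its expectation, a penalty for mismatches. A lower expectation is a closer match, and the sheet held no site above 5. No mRNA was measured, so no value below shows a change of a target gene. The genotype could not be read from the data either, because transcripts of EIN2 are not in a table of small RNAs.

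Total counts over the entries were 1163907 to 1882664 in ein2-1 libraries and 559411 to 940058 in Col-0 libraries. These are totals of the table and not the sequencing depth, and they count repeated entries each time. Over distinct sequences the totals were 606476 to 987089 in ein2-1 and 333025 to 556692 in Col-0. The fit, its library sizes and the CPM values below rest on entries with repeats included. TMM factors, which correct for composition, were 0.737 to 0.853 in ein2-1 and 1.20 to 1.32 in Col-0. Markers of protein-coding genes cannot be read from this table. As a stand-in for remaining leaf tissue, miR319a/b and miR319c were lower in ein2-1 (log2 fold changes of -2.33 and -3.08) and miR408-3p was higher (0.53), all 3 past the threshold. Their part in the results below was not tested. In bulk tissue, fewer cells of a type and less RNA per cell cannot be told apart.

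The sequences that carry the pairs with the lowest expectation, and those with the largest differences between genotypes, are shown from 5′ to 3′ with the seed, bases 2 to 8, in capitals. They come from the authors' target sheet. Sequences that matched no annotated MIR gene are called unannotated and numbered by their entry.
unannotated 17: gAUGAUGAugaugaugaauu
unannotated 309: uAUAGGCAuuauuuuuuuuucu
unannotated 196: uAAUGGAUgaaaaaguaguauu
unannotated 25: aAGGAUUUacaaggauuuuaaacc
unannotated 174: aUUGUCUGugugauuuaggagccu
unannotated 38: aUAGUCGUgaauuacuuaaugauu
miR167c-3p: uAGGUCAUgcugguaguuucacc
miR171b-5p: aGAUAUUAgugcgguucaauc
miR5028: aAUUGGGUuuaugcuagaguu
miR160a/b/c-5p: uGCCUGGCucccuguaugcca
miR393a/b-5p: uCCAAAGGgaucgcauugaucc
miR172b/e-5p: gCAGCACCauuaagauucac
miR165a/b-3p: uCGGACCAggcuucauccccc
miR166-3p: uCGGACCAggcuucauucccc
The line for miR166-3p is the mature product common to MIR166a to MIR166g. miR165 and miR166 share a seed, as do unannotated 3 and unannotated 39, and no other seed was shared among the 44 sequences. Unannotated 17 is mostly a repeat of GAU with 8 exact matches in the reference genome (TAIR10.1, RefSeq). Unannotated 309 matched only the plastid genome, at chrPt:11489-11510 on the minus strand. Unannotated 196 lay antisense to MIR447a, at chr4:1528335-1528356 on the plus strand, and also to MIR447b.

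The sites below were chosen to show the closest match and the looser ones that several results turn on. They are written 5′ to 3′ as they stand in the transcript, and capitals mark bases that form a Watson-Crick pair with the miRNA. G-U pairs and unpaired bases are in lower case.
site of unannotated 17 in PIN7: AAUgCAUCAUCAUCAUCAUu
site of unannotated 309 in BIG: gGccAAAAAAAUAgUGCuUAUg
site of unannotated 196 in BIG: ucagCUACUaUUUUCAUCCAUUA
site of unannotated 38 in AT5G43870: gAUCUUAAcUAAUUCACGAucAU
site of miR167c-3p in AT5G43870: uaaGggAuUACCgGCgUGgCCUg
site of miR171b-5p in EIR1: uAUUaAAuuaCACUAAUAUuU
site of miR156a/b/c/d/e/f-5p in ARF11: GUGuUuguUuUCUUCUGUaA
site of miR172b/e-5p in GH3.4: uUcgAUCUUAAUGGUGCcGu
site of miR165a/b-3p and miR166-3p in DFL1: GGuGugUGAAGuuUGcUCCGA
site of miR393a/b-5p in SAUR66: cauUCgAUuCGgUuuuUUUGGA
site of miR160a/b/c-5p in AT3G25290: UcGCuUACAaGGAuCCAGGuA
In TAIR10.1 the PIN7 site was at chr1:8181335-8181354 on the minus strand, in the 3′ UTR of transcript AT1G23080.2. Places are given for 1 transcript per pair, and they need not hold for other transcripts of the gene. Of the BIG sites, that of unannotated 309 was at chr3:433455-433476 in coding exon 12 of 14 and that of unannotated 196 at chr3:435949-435971 in coding exon 8, both on the minus strand. The sites in AT5G43870 lay at chr5:17632102-17632124 in the 3′ UTR and at chr5:17632705-17632727 in the coding sequence, on the minus strand. The EIR1 site was at chr5:23104778-23104798 on the plus strand in the 3′ UTR, and the ARF11 site at chr2:19104947-19104966 on the plus strand in the 5′ UTR. Coding sequence held the sites in GH3.4 (chr1:21856424-21856443, minus strand), DFL1 (chr5:22131416-22131436, minus strand), SAUR66 (chr1:10321546-10321567, plus strand) and AT3G25290 (chr3:9209241-9209261, plus strand).

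Most of the 52 pairs were loose matches. An expectation of at most 3 was reached by 5 pairs (9.62%), against 15.1% of all pairs in the sheet. An expectation of at most 4 was reached by 35 pairs (67.3%), against 53.0% of all pairs. In none of the 52 was the auxin-annotated gene the best site of its sequence, and over the whole sheet 276 pairs (2.76%) were. The rule had taken the known targets of miR160 and miR393 out of the 52, while the whole sheet keeps them. These shares are thus not of like sets, and they do not describe auxin-annotated genes in general. The median auxin-annotated gene had 24 genes with a lower expectation for the same sequence (range 1 to 82), and in 5 pairs at most 3 genes were ahead of it. In the reference annotation, 38 of 161 genes with auxin in their product name had a site (23.6%), the 7 left-out genes not counted, against 7780 of 31464 genes in all (24.7%).

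Cleavage was the predicted mode for 46 pairs and reduced translation for 6. Coding sequence held the sites of 22 pairs, the 3′ UTR those of 19 and the 5′ UTR those of 9, and 2 lay at an edge of the coding sequence. Each of the 52 sites was found at its deposited place in the transcript, 1 of them across an exon junction. Bases 10 and 11 of the miRNA, between which plant miRNAs cut their targets, were both Watson-Crick paired in 30 of 52 pairs, and all 7 seed bases in 8. From 12 to 20 bases of the miRNA were Watson-Crick paired. The plot of pairing along the miRNA shows that position 2 was Watson-Crick paired in 86.5% of sites, position 10 in 78.8% and position 21 in 54.3%.

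**Figure D1:**
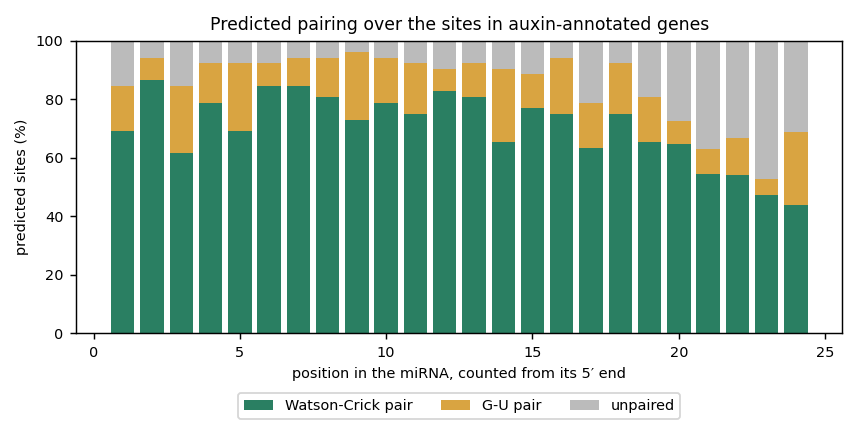
The horizontal axis is the position in the miRNA from its 5′ end and the vertical axis the percent of the predicted sites in auxin-annotated genes. Colours split each bar into Watson-Crick pairs, G-U pairs and unpaired bases. The Watson-Crick share stood at 86.5% at position 2 and 43.8% at position 24, where only the 16 sites of 24-base sequences count.

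**Figure D2:**
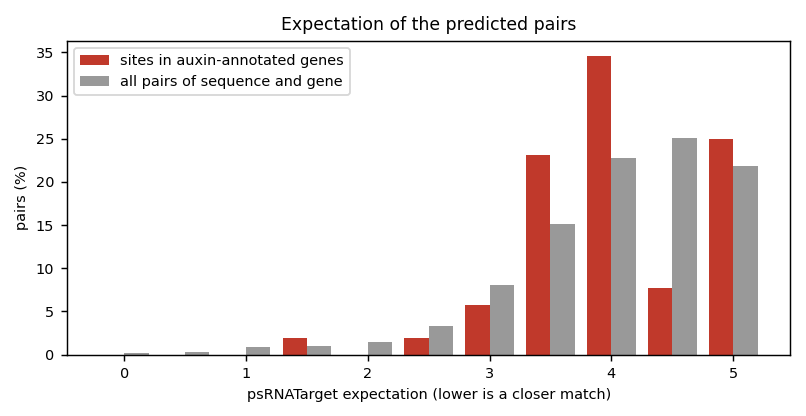
Bars give the percent of pairs at each psRNATarget expectation, for the 52 pairs in auxin-annotated genes and for all 10000 pairs. The auxin-annotated pairs reach 34.6% at an expectation of 4 and 1.92% at 1.5, with none below.

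Of the 44 sequences, 25 were annotated miRNAs or products of MIR genes and 19 were unannotated, 14 of them 24 bases long. A single auxin-annotated gene was matched by 36 sequences and 2 genes by 8. In the other direction, 26 genes had a site of 1 sequence, 10 of 2 and 2 of 3. The 44 sequences had a median of 73 target genes each (range 37 to 125), and the other 98 a median of 66 (range 21 to 114).

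Levels of these sequences differed widely between the genotypes. Of the 38 that passed the filter on low counts, 17 were higher and 9 lower in ein2-1 (edgeR quasi-likelihood test, two-sided, Benjamini-Hochberg adjusted p below 0.05 over all tested entries), 12 did not pass, and 6 were not tested. The 26 called were 68.4% of those tested. The background was 66.9% of all 118 tested sequences, 34.7% higher and 32.2% lower. In this fit the share called was thus near that of the table as a whole. The median log2 fold change of the 38 was 0.41, against 0.06 over all 118. Without a composition correction (library-size scaling) all sequences moved down by a median of 0.69 on the log2 scale, and the 44 then gave 12 higher and 18 lower calls, or 40.0% higher among those called against 65.4%. The whole table then gave 21 higher and 59 lower. The 9 further lower calls among the 44 were those of the product of MIR447a and MIR447b (-0.50), unannotated 38 (-0.71), miR866-3p (-0.72), miR400 (-0.88), unannotated 301 (-0.94), miR169a-3p (-1.06), unannotated 25 (-1.22), miR852 (-1.27) and unannotated 39 (-1.29), none of which passed with TMM. The 9 lower calls made with TMM held under every scaling, and 12 of the 17 higher calls did.

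Annotated sequences gave 12 higher and 7 lower calls of 25 tested, against 22 higher and 30 lower of 72 in the whole table. Unannotated ones gave 5 higher and 2 lower of 13 tested, against 19 higher and 8 lower of 46. Of the 24-base sequences, 3 were higher, none was lower and 5 did not pass, of 8 tested, against 14 higher and 6 lower of 37 tested in the whole table. The 6 untested sequences were all of 24 bases, with 1 to 17 counts in each ein2-1 library and 2 to 11 in each Col-0 library. Among them unannotated 174, with the site in PIN8, had 7, 4 and 6 counts in ein2-1 and 5, 3 and 3 in Col-0, too few to compare.

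**Figure D3:**
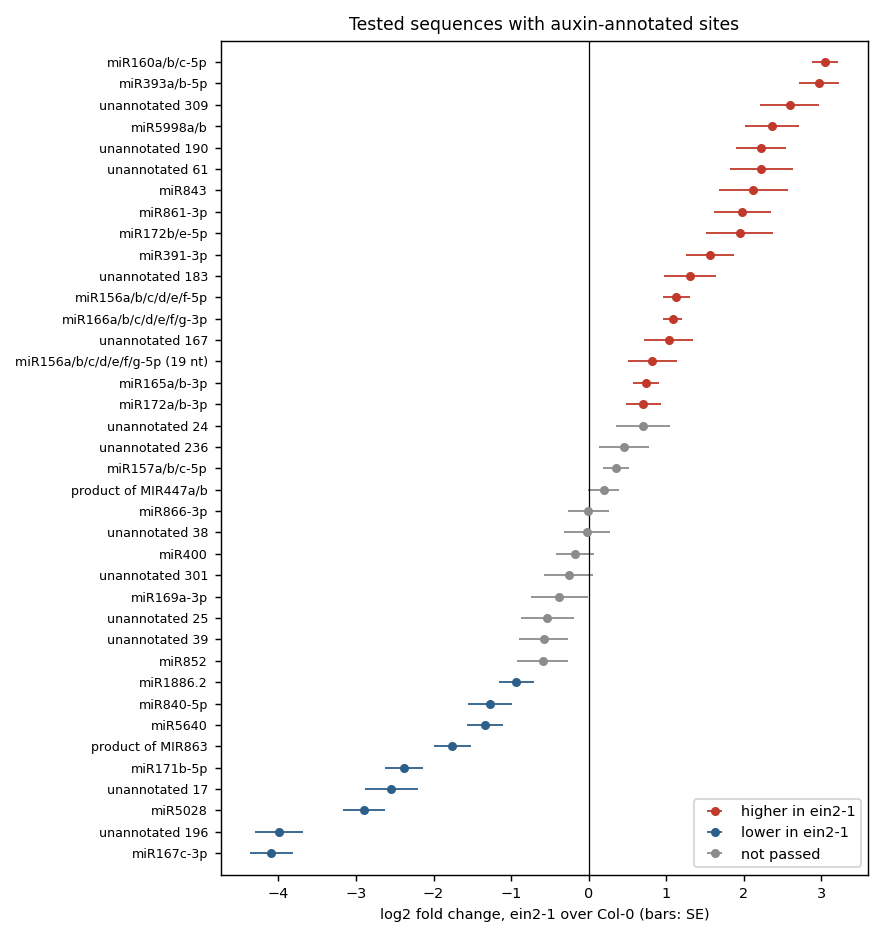
Points are log2 fold changes (ein2-1 over Col-0) of the 38 tested sequences with their standard errors, ordered by size. They run from 3.05 for miR160a/b/c-5p to -4.09 for miR167c-3p, with 17 higher, 9 lower and 12 that did not pass.

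The 44 sequences together made up 47.8, 46.0 and 48.4% of the counts over distinct sequences in ein2-1, against 32.8, 31.7 and 32.3% in Col-0. This was mostly miR166-3p. Without it the shares were 10.6, 8.40 and 9.67% in ein2-1 and 6.83, 6.73 and 7.01% in Col-0, again with no overlap between the genotypes. That remainder includes miR160a/b/c-5p, with 12547, 24023 and 18091 counts in ein2-1 and 2185, 1387 and 1325 in Col-0. With miR160a/b/c-5p left out as well, the shares of the genotypes overlap. These are shares within the table, so a higher share of some sequences lowers that of the rest.

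Transport genes held the closest matches. They were 9 genes with 11 sequences, of which 5 were higher and 3 lower in ein2-1, 2 did not pass and 1 was not tested. PIN7, an auxin efflux carrier of the plasma membrane, had the lowest expectation of all, 1.5, for unannotated 17. That sequence had 16, 9 and 16 counts in ein2-1 and 65, 56 and 59 in Col-0. Every ein2-1 library lay below every Col-0 library, with means of 12.5 ± 5.49 CPM (counts scaled to the TMM-corrected library size) in ein2-1 and 71.1 ± 11.8 CPM in Col-0 (SD, n = 3 each). The log2 fold change was -2.54 (SE 0.34, edgeR adjusted p = 2.04e-05). This repeat sequence had 68 of its 117 target genes at a lower expectation than PIN7.

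BIG, a very large protein needed for normal auxin transport, had sites of 3 sequences, and their directions differed. Unannotated 309, at an expectation of 2.5, had 21, 24 and 29 counts in ein2-1 and 4, 2 and 3 in Col-0. It was higher in all ein2-1 libraries, by 2.59 on the log2 scale (standard error 0.38, edgeR adjusted p = 4.04e-05). Unannotated 196, at an expectation of 3.5, had 5, 10 and 9 counts in ein2-1 and 122, 89 and 77 in Col-0. All its ein2-1 libraries were far below those of Col-0, and its log2 fold change of -3.99 (standard error 0.30, edgeR adjusted p = 1.38e-07) was the second largest fall among the 44. Unannotated 167, at an expectation of 5, was higher by 1.03 (SE 0.32, edgeR adjusted p = 0.0110), but by 0.35 and no longer past the threshold under library-size scaling, nor with 1 entry per distinct sequence (0.89).

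EIR1 is PIN2, the root efflux carrier whose loss was also found as ethylene-insensitive root growth. Its site was one of miR171b-5p, the strand opposite to the miR171 that is known for pairing with transcripts of GRAS transcription factors. miR171b-5p had 29, 48 and 33 counts in ein2-1 and 167, 115 and 139 in Col-0. The genotypes did not overlap, with 31.2 ± 1.88 CPM in ein2-1 and 164 ± 18.9 CPM in Col-0 (SD, n = 3 each), a log2 fold change of -2.38 (standard error 0.24, edgeR adjusted p = 1.72e-06). PIN5, a carrier of the endoplasmic reticulum, had a site of miR861-3p at an expectation of 4. That miRNA had 48, 117 and 47 counts in ein2-1 and 21, 5 and 13 in Col-0, and was higher by 1.98 (SE 0.37, edgeR adjusted p = 0.000287).

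PIN4 had a site in its 5′ UTR for unannotated 25 at an expectation of 3. This sequence had 6, 12 and 15 counts in ein2-1 and 17, 8 and 11 in Col-0, and the genotypes overlapped (log2 fold change -0.53, SE 0.35, edgeR adjusted p = 0.176). Without ein2-1 replicate 3 it passed as lower, at -0.90. The PIN-LIKES (PILS) are carriers of the endoplasmic reticulum. PILS3 had a 3′ UTR site of miR172a/b-3p, a miRNA known for targeting AP2-type transcription factors, which was higher in ein2-1 by 0.71 (SE 0.22, edgeR adjusted p = 0.0119) but differed by -0.00 under library-size scaling and did not pass with 1 entry per distinct sequence (0.50). PILS4 was matched by miR393a/b-5p only at an expectation of 5. The 3′ UTR of PILS7 was matched by miR400, which did not pass (-0.17, SE 0.25, edgeR adjusted p = 0.537).

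The genes described as auxin canalisation proteins, AT3G22810 and AT5G43870, had sites of 3 sequences. The coding-sequence site in AT5G43870 was that of miR167c-3p, the strand opposite to the miR167 known for targeting ARF6 and ARF8. miR167c-3p had 97, 81 and 132 counts in ein2-1 and 1927, 1113 and 1104 in Col-0. With 92.9 ± 35.1 CPM in ein2-1 and 1570 ± 121 CPM in Col-0 (SD, n = 3 each), its log2 fold change of -4.09 (standard error 0.27, edgeR adjusted p = 4.84e-08) was the largest fall among the 44. The closer match in that gene, at an expectation of 3 with 1 gene ahead of it among 50, was unannotated 38, with 18, 29 and 21 counts in ein2-1 and 26, 9 and 17 in Col-0. Its libraries overlapped (log2 fold change -0.02, SE 0.30, edgeR adjusted p = 0.950), and the sign of this small difference turned with the scaling. AT3G22810 was matched by miR5640 in the 5′ UTR of its transcript AT3G22810.3. This miRNA had 119, 251 and 120 counts in ein2-1 and 342, 225 and 315 in Col-0. It was lower, at a log2 fold change of -1.34 (standard error 0.24, edgeR adjusted p = 0.000191).

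ARF proteins bind the promoters of auxin-responsive genes. The genes whose description says auxin response factor were ARF1, ARF2, ARF4 and ARF11, with 6 sequences of which 3 were higher in ein2-1, none was lower and 3 did not pass. ETT is not in this count, by its description. The called were 50.0% of the 6, against 66.9% of all 118 tested sequences. Among the higher, 2 were forms of miR156 with a shared site. ARF11 had 1 site in its 5′ UTR that both forms of miR156 matched, the 20-base form at an expectation of 4 and a 19-base form, 1 base shorter at its 5′ end, at 3.5. The longer form, whose known targets are SPL transcription factors, had 5203, 7497 and 7362 counts in ein2-1 and 2722, 1800 and 2282 in Col-0. It was higher in each ein2-1 library than in any Col-0 library, by 1.13 (SE 0.18, edgeR adjusted p = 6.32e-05). The 19-base form had 29, 74 and 61 counts in ein2-1 and 23, 22 and 22 in Col-0, and its scaled levels overlapped (0.82, SE 0.32, edgeR adjusted p = 0.0327). Its call was lost with 1 entry per distinct sequence (0.57), under library-size scaling (0.12), with DESeq2 (0.64), with limma-voom (0.77), without ein2-1 replicate 2 (0.73) and without ein2-1 replicate 3 (0.66).

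ARF4 had a site at an edge of its coding sequence for miR843, with 35, 43 and 50 counts in ein2-1 and 10, 1 and 11 in Col-0. All ein2-1 libraries were above those of Col-0 (2.13, SE 0.44, edgeR adjusted p = 0.000655). A second sequence with a site in ARF4, a product of MIR447a and MIR447b, had 191, 267 and 205 counts in ein2-1 and 190, 121 and 123 in Col-0 and did not pass (0.19, SE 0.20, edgeR adjusted p = 0.393). Its scaled levels were higher in every ein2-1 library than in any Col-0 library, but under library-size scaling it was called lower, at -0.50. ARF2 was matched in its 5′ UTR by miR866-3p, which had 176, 427 and 376 counts in ein2-1 and 257, 206 and 241 in Col-0, with overlap and a log2 fold change of -0.00 (standard error 0.26, edgeR adjusted p = 0.993). ARF1 was matched by miR400 at 3.5, whose value is given above for PILS7. ETT, which is ARF3 although its description names it AUX/IAA-like, had a 3′ UTR site of miR169a-3p at 4.5, and that miRNA did not pass (-0.38, SE 0.36, edgeR adjusted p = 0.367). Its 5′ UTR site, at 5, was that of unannotated 183, which had 18, 25 and 23 counts in ein2-1 and 12, 4 and 4 in Col-0 and was higher by 1.31 (SE 0.34, edgeR adjusted p = 0.00314), but by 0.63 and not past the threshold under library-size scaling.

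IAA13 is an Aux/IAA repressor. Its sites belonged to unannotated 301, with 11, 11 and 9 counts in ein2-1 and 14, 8 and 6 in Col-0, which overlapped and did not pass (-0.26, SE 0.32, edgeR adjusted p = 0.507), and to the untested unannotated 32. AT3G25290, described only as an auxin-responsive family protein, had a coding-sequence site of miR160a/b/c-5p at an expectation of 4.5, while the best target of this miRNA stood at 0.5. miR160a/b/c-5p had 12547, 24023 and 18091 counts in ein2-1 and 2185, 1387 and 1325 in Col-0. No other sequence of the 44 rose as much in ein2-1 (3.05, SE 0.17, edgeR adjusted p = 1.17e-08).

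GH3 enzymes join auxin and related acids to amino acids, and the 4 genes described as GH3 had sites of 7 sequences. In ein2-1, 4 of these were higher and 1 was lower, and 2 were not tested. All 5 tested were thus called, against 66.9% of all 118 tested sequences, and miR165 and miR166 among them share a site. DFL1, which is GH3.6, had 1 coding-sequence site matched by both miR165a/b-3p and miR166-3p, at an expectation of 5. Both miRNAs are known for targeting class III homeodomain leucine zipper genes, and each had a target at 0.5. miR166-3p, the most abundant of the 44, had 225799, 371415 and 286258 counts in ein2-1 and 144750, 83159 and 85103 in Col-0. It was higher in all ein2-1 libraries, by 1.08 (SE 0.13, edgeR adjusted p = 5.17e-06). miR165a/b-3p had 37843, 37006 and 31744 counts in ein2-1 and 23669, 12872 and 12984 in Col-0, and was higher by 0.74 (SE 0.17, edgeR adjusted p = 0.00119). The difference of miR165a/b-3p did not pass under library-size scaling (0.07) or with 1 entry per distinct sequence (0.68).

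GH3.4 was matched by miR172b/e-5p at an expectation of 3.5, in a site where bases 4 to 16 of the miRNA were all paired. miR172b/e-5p had 26, 85 and 93 counts in ein2-1 and 18, 7 and 14 in Col-0, and was higher in every ein2-1 library (1.95, SE 0.43, edgeR adjusted p = 0.00114). AT5G13370 held sites of 3 sequences, 2 in its 5′ UTR and 1 in its 3′ UTR. Of these, miR1886.2 had 94, 119 and 99 counts in ein2-1 and 159, 128 and 150 in Col-0 and was lower, at a log2 fold change of -0.93 (standard error 0.23, edgeR adjusted p = 0.00233). Unannotated 190 had 39, 78 and 74 counts in ein2-1 and 12, 9 and 9 in Col-0 and was higher by 2.22 (SE 0.33, edgeR adjusted p = 4.00e-05). The third, unannotated 3, with 1, 3 and 8 counts in ein2-1 and 10, 5 and 5 in Col-0, was not tested, nor was unannotated 105, with the site in AT1G48690.

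SAUR genes encode small proteins that auxin induces within minutes and that promote cell expansion. With 12 genes they were the largest class, with 13 sequences of which 5 were higher and 3 lower in ein2-1, 4 did not pass and 1 was not tested. The called were 66.7% of the 12 tested, near the 66.9% of all 118 tested sequences. SAUR66 and SAUR6 had the lowest expectation of the class, 3.5. The SAUR66 site was that of miR393a/b-5p, which had 2172, 3601 and 4482 counts in ein2-1 and 468, 236 and 296 in Col-0, without overlap (2.97, SE 0.25, edgeR adjusted p = 3.15e-07). In the SAUR66 site only 13 bases of the miRNA were Watson-Crick paired, and 10 other genes had a lower expectation. SAUR6 and SAUR54 had sites of miR391-3p, with 83, 164 and 159 counts in ein2-1 and 31, 29 and 39 in Col-0 (1.57, SE 0.31, edgeR adjusted p = 0.000448).

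SAUR39 was matched by miR5028, which had 32, 38 and 20 counts in ein2-1 and 211, 160 and 129 in Col-0. Its level was 25.8 ± 6.64 CPM in ein2-1 and 193 ± 25.6 CPM in Col-0 (SD, n = 3 each), a log2 fold change of -2.90 (standard error 0.27, edgeR adjusted p = 6.34e-07). SAUR65 was matched by sequences that moved in opposite directions. These were a product of MIR863, lower with 38, 53 and 37 counts in ein2-1 and 123, 91 and 105 in Col-0 (-1.76, SE 0.24, edgeR adjusted p = 2.05e-05), and miR861-3p, which was higher as given for PIN5. SAUR34 was matched by unannotated 61, higher by 2.22 (SE 0.41, edgeR adjusted p = 0.000241), and SAUR9 by unannotated 190, given above. SAUR48 had sites of miR5640, which was lower, and of miR852, which did not pass (-0.59, SE 0.33, edgeR adjusted p = 0.119). SAUR71, matched by miR852, SAUR41 by miR157a/b/c-5p (0.35, SE 0.17, edgeR adjusted p = 0.0811), SAUR72 by unannotated 25 and SAUR30 by unannotated 39 (-0.58, SE 0.32, edgeR adjusted p = 0.112) had no called sequence. Of these, miR157a/b/c-5p passed as higher, at 0.42 to 0.56, when Col-0 replicate 1, 2 or 3 or ein2-1 replicate 1 was left out, and also with totals without the most abundant sequence (0.65) and with no filter (0.50), but under library-size scaling it stood at -0.36. Unannotated 39 passed as lower without ein2-1 replicate 3 (-0.99), with 1 entry per distinct sequence (-0.84), under RLE scaling (-0.72), with DESeq2 (-0.75) and under library-size scaling (-1.29).

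The last 4 genes are SAR1 and SAR3, which are nucleoporins found through auxin resistance, AUL1, and AT1G56220, described as dormancy- and auxin-associated. AUL1 entered through the words auxin-like in its description, while the reference annotation gives auxilin-like, a protein of vesicle uncoating, among its names. The site in AUL1 was that of miR5998a/b, with 49, 116 and 106 counts in ein2-1 and 13, 11 and 14 in Col-0, higher in every ein2-1 library (2.37, SE 0.35, edgeR adjusted p = 4.00e-05). AT1G56220 was matched by miR840-5p at an expectation of 5, lower in ein2-1 at 43, 97 and 100 counts against 162, 118 and 145 in Col-0 (-1.28, SE 0.28, edgeR adjusted p = 0.00115). SAR3 had sites of unannotated 24 (0.70, SE 0.35, edgeR adjusted p = 0.0886) and of unannotated 236 (0.46, SE 0.32, edgeR adjusted p = 0.206), neither of which passed, and SAR1 one of the untested unannotated 205. Unannotated 24 passed as higher without Col-0 replicate 1 (1.07), Col-0 replicate 2 (0.84) or ein2-1 replicate 1 (0.96), with totals without the most abundant sequence (0.95) and with no filter (0.84).

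**Figure D4:**
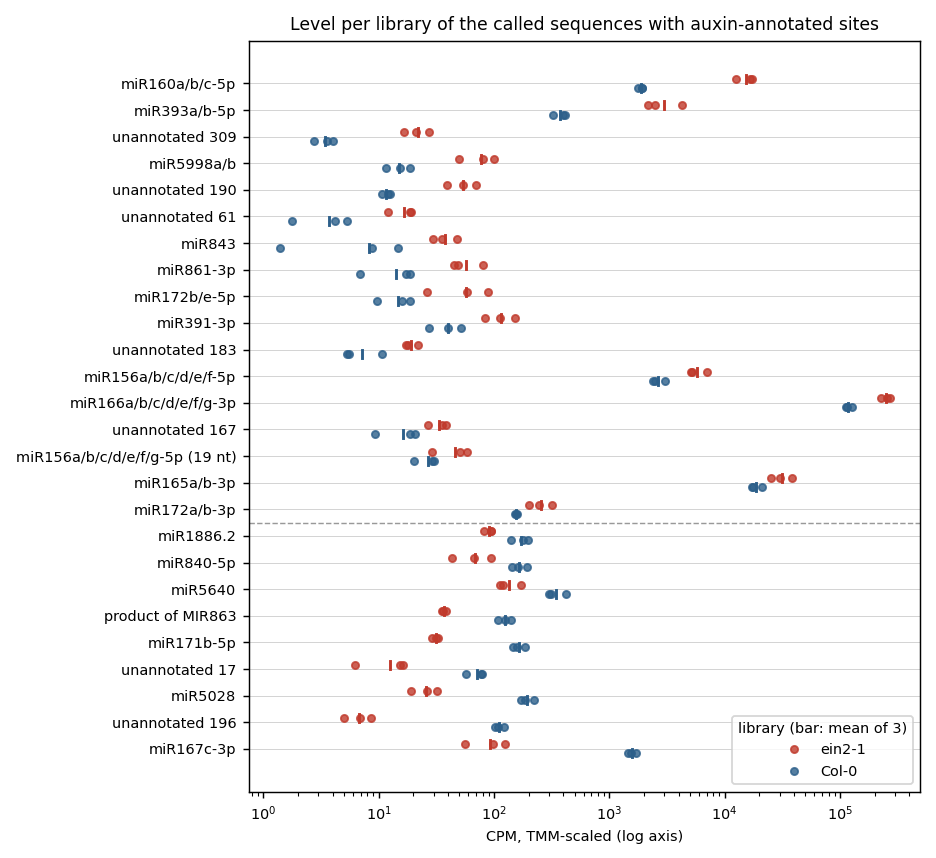
Each point is the level of a called sequence in 1 library, in TMM-scaled CPM on a log axis, with ein2-1 above Col-0 and a bar at the mean of 3. The genotypes do not overlap for any of the 26 except the 19-base form of miR156. The 26 were picked by the test on these same values, and 79 of all 118 tested sequences (66.9%) did not overlap. Means run in ein2-1 from 251494 CPM for miR166-3p to 6.82 CPM for unannotated 196, and in Col-0 from 118659 CPM for miR166-3p to 3.43 CPM for unannotated 309.

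Read by gene, 25 of the 38 (65.8%) had at least 1 called sequence, near the background of 62.8% of all 7800 genes with a site. In 15 genes the called sequences were higher in ein2-1, in 7 lower, and in BIG, AT5G13370 and SAUR65 of both directions. Over all 7800 genes, 28.7% had higher calls only, 29.4% lower calls only and 4.72% both. Of the 5 genes with 2 or more called sequences, ARF11 and DFL1 had them in 1 direction, and in both the sequences share a site. By place, the sequences with a site in coding sequence gave 11 higher and 2 lower calls of 17 tested, and those with a site in the 3′ UTR 3 higher and 5 lower of 17. Over the whole table, 41 of 118 tested sequences were higher and 38 lower, whatever the place of their sites. Calls by place were not counted for the whole sheet. No test of a difference between places was run, and 1 sequence can have sites in both. By expectation, the 5 pairs at 3 or below came from 5 sequences, of which unannotated 309 was higher, unannotated 17 was lower, unannotated 25 and unannotated 38 did not pass and unannotated 174 was not tested.

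**Figure D5:**
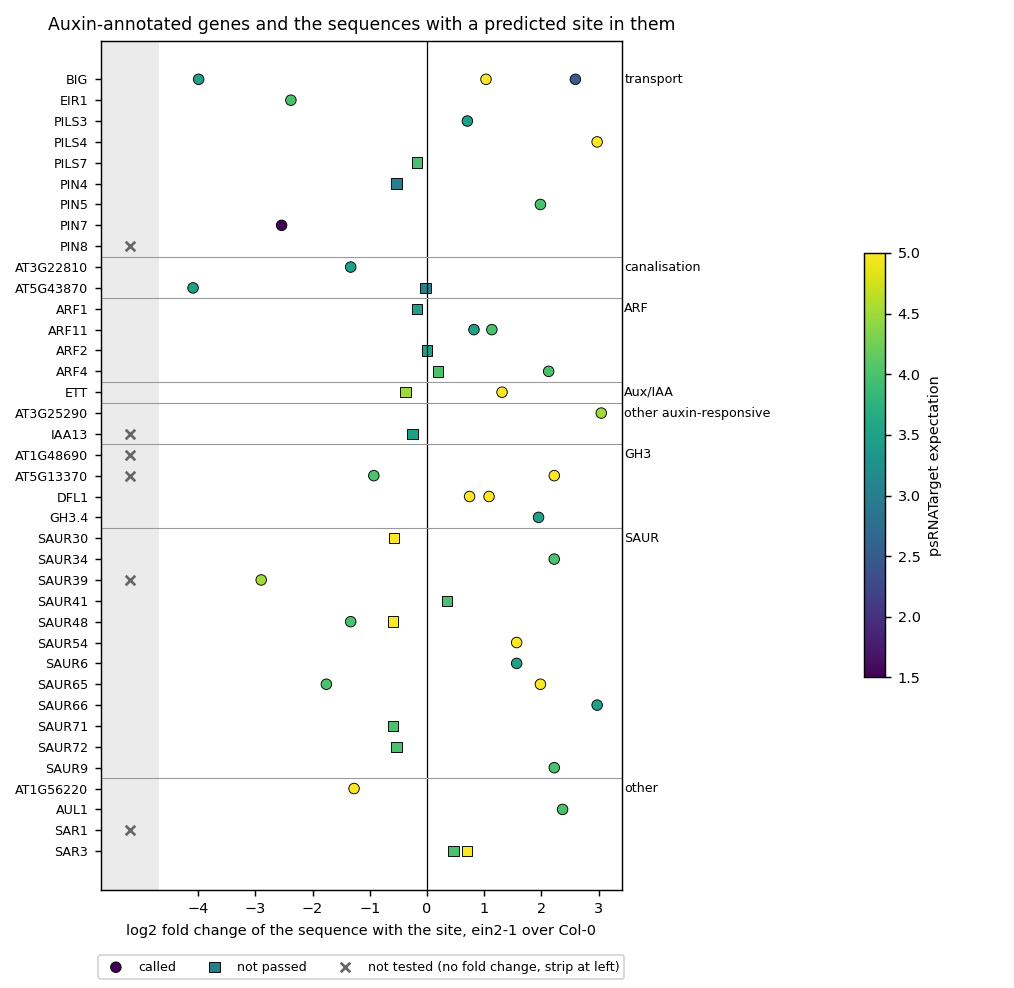
Each row is an auxin-annotated gene and each point the log2 fold change (ein2-1 over Col-0) of a sequence with a site in it, coloured by expectation, with crosses in the grey strip for untested sequences. BIG, AT5G13370 and SAUR65 have called points on both sides of 0, and the darkest point, PIN7 at 1.5, lies at -2.54.

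A list of miRNA families known for auxin genes (miR160, miR164, miR167, miR390, miR393 and miR847) held 7 sequences. Of these, 3 were higher and 3 lower in ein2-1 and 1 did not pass, or 85.7% called against 66.9% of all 118 tested. The list was chosen with earlier results of these data known, so its share called is not independent of them. Of these 7, miR160a/b/c-5p, miR393a/b-5p and miR167c-3p also had sites in the 38 genes. miR847 was the other one higher, and miR390a/b-5p (-1.74) and miR167a-3p (-1.07) were the others lower. Both miR167 sequences are 3p strands, opposite to the miR167 known for targeting ARF6 and ARF8. In the authors' deposited table of selected miRNAs, 12 of the 44 sequences appeared, 6 higher and 6 lower in ein2-1, against 29 of all 142, with 12 higher and 17 lower.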

How the data were processed

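Raw counts per miRNA precursor entry were deposited for all 6 libraries, which the series' design text calls biological replicates. The submitters' processing notes name cutadapt, an adapter trimmer, and the TAIR10 genome. The sources used here do not name the aligner or the counting tool. Per the file headers, the authors' table gives a log2 fold change and a p-value with its FDR, and for each predicted site the authors give a psRNATarget score, the expectation. The deposited normalised values, 6 columns, were not used. Of the target sheet, 7 lines held no values and were not used.

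Differences between genotypes were tested on the counts in R 4.3.3 with edgeR 4.0.16 (TMM, filterByExpr, quasi-likelihood, genotype as the only term, Benjamini-Hochberg over the 153 tested entries). Standard errors (SE) were derived from the test, as the absolute log2 fold change divided by the square root of its F statistic. SDs are over 3 libraries and cover the spread between these samples. The test was checked on simulated data in which equal numbers of sequences rose and fell. Only TMM scaling was used there, so the check cannot decide between scalings. Sites and sequences were placed on the TAIR10.1 reference (RefSeq) by exact match, and the names of genes come from it. Classes of genes were set by words in the description. A further 6 genes described as indole-3-acetic acid inducible lack the word auxin and are outside the rule.

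The rule for named pairs took those with an expectation of at most 3, the best of each class, the 5 largest rises and falls without overlap, the 3 sequences with most genes, the 3 genes with most sequences and the 3 most abundant sequences. Other members are given to account for every gene. The members and lists were chosen with earlier results of these data known. Alternatives were RLE and library-size scaling, totals without the most abundant sequence, 1 entry per distinct sequence, DESeq2 1.42.0, limma-voom (limma 3.58.1), a replicate block, a filter of 10 or more counts in 3 libraries, no filter, an adjusted p below 0.01, expectation limits of 4 and 3, and each library left out in turn. Python 3.11.15 with pandas 2.3.3, numpy 2.4.6 and matplotlib 3.10.9 made the tables and plots.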

Additional observations from a re-analysis of the deposited data

How the results depend on the processing

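The 17 higher and 9 lower calls in ein2-1 stayed within 1.5 times of these counts under every alternative, except library-size scaling, with 18 lower, and an expectation limit of 3, with 1 higher, 1 lower and 5 genes in place of 38. Leaving out 1 library at a time gave 15 to 19 higher and 9 to 11 lower calls. All 9 lower calls were made in all 15 alternative fits, and 12 of the 17 higher calls in every fit in which they were tested. The 5 others were lost under at least 1 scaling, and were miR165a/b-3p, miR172a/b-3p, the 19-base form of miR156, unannotated 183 and unannotated 167. With 1 entry per distinct sequence, 13 of the 38 tested were called higher and 10 lower. The whole table then gave 25 higher and 38 lower of 120 tested, or 52.5% called. With DESeq2, 16 of 44 were higher and 10 lower, against 33 and 36 of 142 in the whole table (48.6% called). Calls that came or went when 1 library was left out were those of the 19-base form of miR156, miR157a/b/c-5p, unannotated 24, unannotated 25 and unannotated 39, given above. The limits of these values are the low counts of the unannotated sequences and the lack of a spiked-in RNA in the table, without which a common shift in all sequences cannot be seen.

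Apart from miR172a/b-3p under library-size scaling (-0.00), no called sequence changed sign under the 15 alternative fits. Of the named sequences that were not called, several small differences did. With totals without the most abundant sequence, miR400 was at 0.11, unannotated 38 at 0.26, miR866-3p at 0.30 and unannotated 301 at 0.027. With no filter, unannotated 38 was at 0.13 and miR866-3p at 0.14, and with limma-voom unannotated 38 was at 0.037. Leaving out 1 library at a time, unannotated 38 ranged from -0.048 to 0.29, miR866-3p from -0.22 to 0.24, miR400 from -0.42 to 0.048 and unannotated 301 from -0.42 to 0.062. Under library-size scaling the product of MIR447a and MIR447b was at -0.50, miR157a/b/c-5p at -0.36 and unannotated 236 at -0.22. The cause was not tested.

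The labels number the replicates but name no shared day or batch, so the numbers were not taken as pairs. Deviations of libraries with the same number correlated at 0.21, -0.04 and 0.17 between the genotypes. For libraries with unlike numbers the values ran from -0.24 to 0.04. These values do not settle whether the numbers mark pairs. With a replicate block the counts were 17 higher and 9 lower, as without it, and unannotated 38 was at 0.012.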
